A study of Mus musculus with 8 samples.

Results

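Semaphorins are secreted, membrane-spanning or lipid-anchored ligands, and plexins are their main receptors. Neuropilins are co-receptors that let most secreted class 3 semaphorins act through A-type plexins and Plxnd1. Plexins signal by switching off small GTPases of the Ras and Rap families and by acting on the cytoskeleton, which loosens adhesion and moves the cell edge. First known from axon guidance, the family also works in immunity. In mice, dendritic cells use class 4 semaphorins in contacts with T cells. Plxna1 on mouse dendritic cells takes part in their migration and in T cell stimulation. The family was taken here as every protein-coding mouse gene whose symbol is Sema with a class from 3 to 7 and a letter, Plxn with a letter from a to d and an optional number, Nrp1 or Nrp2. The rule found 31 of the 55487 genes in the count files: 20 semaphorins (7 secreted ones of class 3 and 13 membrane-bound ones of classes 4 to 7), 9 plexins and 2 neuropilins.

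The libraries are RNA-seq of conventional dendritic cells (cDC), sorted from the spleens of untreated C57BL/6 mice at 100000 cells per sample. The 4 groups, each of 2 libraries numbered 2 and 3, are cDC1 of Zeb2 -165(d1+2+3) mice (Zeb2 mutant cDC1), cDC1 of WT mice, cDC2 of Irf8 +32-/- mice (Irf8 mutant cDC2) and cDC2 of WT mice. The labels name each allele by a number after its gene, Zeb2 or Irf8, which both encode transcription factors. Sort gates, the animals' age and whether a library pools animals are not given in the sources used for this account. Each mutant was sampled in 1 cell type and no library carries both alleles, so mutant and cell type are not crossed. Values per library are given for replicate 2 and then replicate 3.

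Library totals were 49380686 to 58611821 reads counted in genes. Levels are reads per 1000000 (CPM), scaled between libraries by the trimmed mean of M values (TMM CPM). The summed cDC1 markers (8 genes, among them Xcr1 and Clec9a) reached 6383 to 6640 CPM in Zeb2 mutant and 6087 to 6284 CPM in WT cDC1, and 220 to 259.9 CPM in Irf8 mutant and 211 to 224 CPM in WT cDC2. The 8 cDC2 markers, among them Sirpa and Irf4, summed to 36.5 to 44.5 CPM in the 4 cDC1 libraries and 2126 to 2486 CPM in the 4 cDC2 libraries, so the libraries matched their labelled cell types. Zeb2 itself stood at 2.24 and 3.54 CPM in Zeb2 mutant cDC1 and at 2.09 and 2.10 CPM in WT cDC1. Irf8 stood at 147 and 120 CPM in Irf8 mutant cDC2 and at 126 and 104 CPM in WT cDC2. In both cases the mutant's lower library was not below the WT's lower one, and nothing here checks the alleles themselves. Each gene was far higher in the other WT cell type. Zeb2 had 200.5 and 200.3 CPM in WT cDC2, and Irf8 had 3263 and 3641 CPM in WT cDC1. Each allele was thus sampled in the cell type with the lower level of its gene. The mutant comparisons therefore do not show what either allele does to the family in the other cell type. The 2 WT cDC1 libraries differed from each other with exon length (Spearman correlation -0.391 over 8399 genes, replicate 2 minus replicate 3, a description with no test), more than any other pair. The family's genes are long (median 7720 bases of exon, against 3274 in all tested genes), so the main results that rest on WT cDC1 are also given without each of its libraries. All libraries are bulk RNA of sorted cells, in which fewer cells of a type and less RNA per cell cannot be told apart.

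Promoter sequences of 3 members are shown as examples of members called in each direction between the cell types, and because Irf8 and Zeb2 bind short motifs that can be looked for in them; they were chosen after their values were seen. Sema4f was higher in cDC1, while Plxnc1 and its ligand Sema7a were lower in cDC1 than in cDC2. Each window is the 250 bases before the gene's start in RefSeq on GRCm38.p6, on the gene's strand, with motif matches in capitals: CACCTG (an E-box letter string that Zeb factors bind) for Sema4f at chr6:82939770-82940019, minus strand, and the IRF repeat (GAAA, 2 bases of any kind and GAAA again, which IRF factors bind) for Plxnc1 at chr10:94944846-94945095, minus strand. The Sema7a window at chr9:57939862-57940111, plus strand, held none of the 4 motifs searched.
Sema4f promoter: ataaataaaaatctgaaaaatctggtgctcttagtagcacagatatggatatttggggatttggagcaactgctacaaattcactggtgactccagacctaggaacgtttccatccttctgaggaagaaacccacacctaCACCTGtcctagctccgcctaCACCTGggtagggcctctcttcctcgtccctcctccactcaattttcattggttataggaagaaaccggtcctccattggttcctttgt
Plxnc1 promoter: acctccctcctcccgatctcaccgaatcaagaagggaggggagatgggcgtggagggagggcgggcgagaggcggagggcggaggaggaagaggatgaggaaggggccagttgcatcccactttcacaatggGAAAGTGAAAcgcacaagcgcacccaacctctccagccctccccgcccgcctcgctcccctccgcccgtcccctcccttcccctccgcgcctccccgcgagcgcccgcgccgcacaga
Sema7a promoter: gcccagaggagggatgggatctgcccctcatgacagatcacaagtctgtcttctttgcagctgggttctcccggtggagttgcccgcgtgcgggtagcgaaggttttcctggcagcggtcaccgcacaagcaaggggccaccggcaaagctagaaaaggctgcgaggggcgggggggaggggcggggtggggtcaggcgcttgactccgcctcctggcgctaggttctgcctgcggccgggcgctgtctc
On either strand, CACCTG was found in the windows of Sema3d, Sema4c and Sema4f, which is 3 of the 26 members with a window, against 17.1% of all 27026 windows. Sema4f held 2 copies, at bases -110 to -105 and -89 to -84, and 2.04% of all windows held at least 2. The IRF repeat was found for Plxnc1, at bases -118 to -109, and for Sema6b, which is 2 of 26 windows against 3.05% of all. The ETS-IRF composite (GGAA, 2 bases of any kind and GAAA), which can overlap the IRF repeat, was in no member's window and in 2.38% of all, and the AP-1 string TGANTCA was in the Sema4c window and in 6.85% of all. The members' windows held a median of 15.5 CpG dinucleotides and 64.6% G or C, against 6 and 52.0% in all windows. For Sema3a and Sema4d, both among the 26, the RefSeq start lies 271370 and 37064 bases inside the gene as the count files give it. A match is a string of letters in this window and was not tested as a binding site.

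Of the 31 genes, 16 were detected in all 4 groups, 8 in some groups and 7 in none, where detected means at least 10 reads in both libraries of a group. By group, 19 were detected in Zeb2 mutant cDC1, 19 in WT cDC1, 20 in Irf8 mutant cDC2 and 20 in WT cDC2, and 14, 15, 17 and 17 members, in the same order, averaged at least 1 CPM. Among all genes in the count files, coding or not, 29.5% to 30.0% were detected per group. The family holds protein-coding genes only, so its share and this one come from unlike sets. With at least 5 reads the family's counts were 20, 23, 25 and 23, and with at least 20 reads 15, 16, 17 and 18. Both neuropilins were detected in every group. Plxna2 and Sema5a, Sema3b, Sema3c, Sema3d, Sema3e and Sema3g were detected in none; their highest count in any library was 44, for Plxna2 in Irf8 mutant cDC2 replicate 3. Sema3c had no read in either Zeb2 mutant cDC1 library, where 3 reads over the group would be 0.0267 CPM. Of the class 3 semaphorins, most of which bind neuropilins, Sema3f was detected in both cDC2 groups. Sema3a, the classical axon repellent, was detected in WT cDC2 with 15 and 13 reads. It had 13 and 9 reads in Zeb2 mutant cDC1, 5 and 19 in WT cDC1 and 10 and 6 in Irf8 mutant cDC2. Each of these groups missed the cut of 10 reads in a single library, so the detection does not set WT cDC2 apart.

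The genes detected in some groups were mostly rare. Sema5b, a membrane semaphorin with thrombospondin repeats, was detected in both cDC1 groups and neither cDC2 group. Plxnb3 and Sema6c were detected in both cDC2 groups and neither cDC1 group. Sema6a, a membrane ligand of A-type plexins, was detected in all groups but WT cDC2. Plxnb1, a Sema4d receptor, passed in Zeb2 mutant cDC1 with 10 and 22 reads, and its reads in the other groups were uneven, for example 90 and 6 in WT cDC2. Sema4g passed in WT cDC1 with 11 and 20 reads. At these depths 12 members averaged under 1 CPM in every group and 13 averaged at least 5 CPM in 1 or more groups; the plot of levels by library shows these 13.

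**Figure D1:**
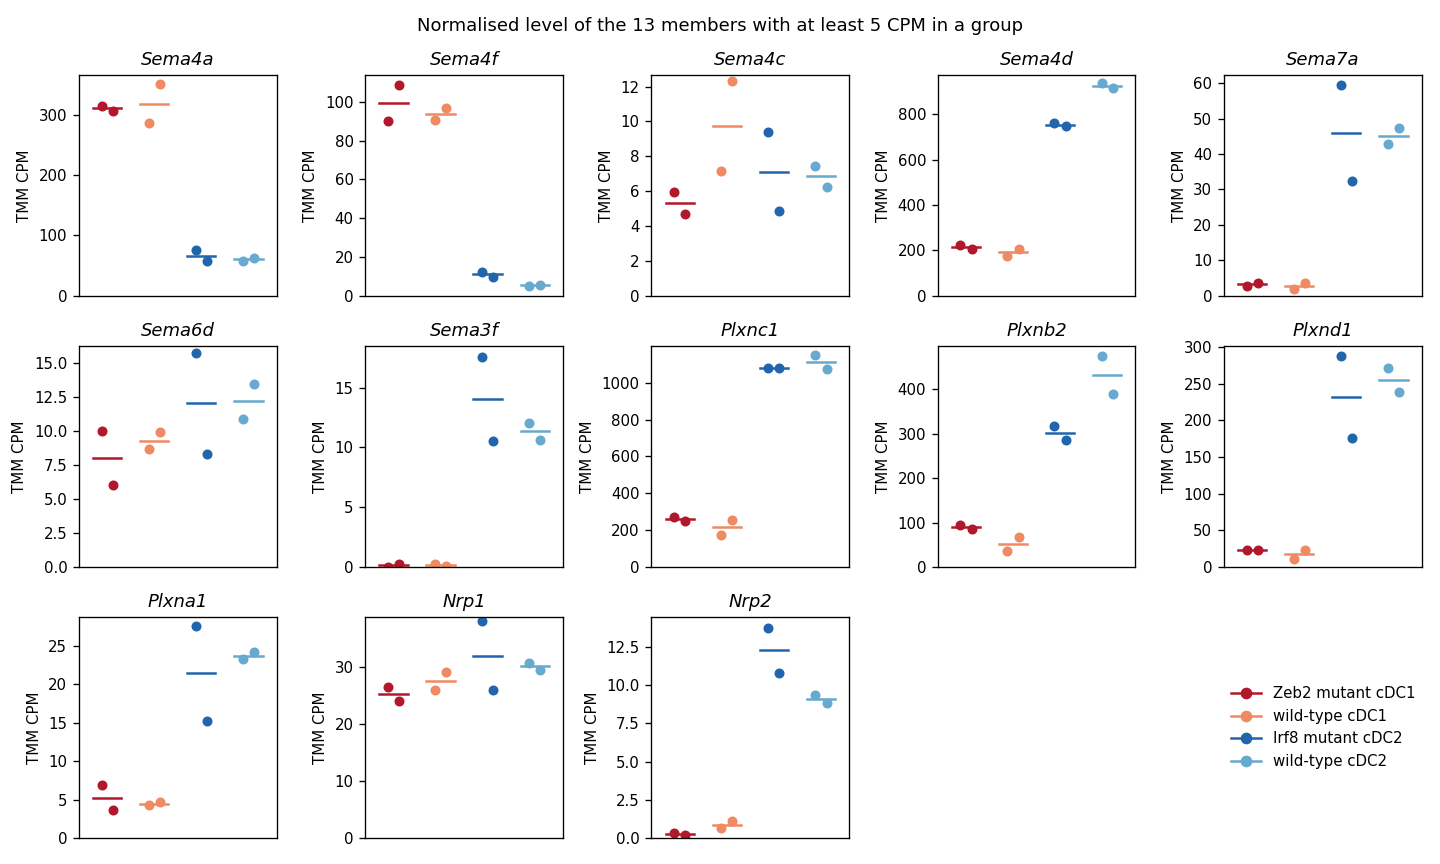
TMM-normalised CPM (vertical axes, linear, each starting at 0) of the 13 members with at least 5 CPM in a group, in each library (points) with the group mean (bars); groups run from left to right as Zeb2 mutant cDC1, WT cDC1, Irf8 mutant cDC2 and WT cDC2. Sema4a and Sema4f lie higher in the 4 cDC1 libraries, Sema4d, Sema7a, Sema3f, 4 plexins and Nrp2 lie higher in the 4 cDC2 libraries, and the points of Nrp1, Sema4c and Sema6d mix.

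Every member that edgeR called was called between the cell types, and none between a mutant and WT. In WT cells, cDC1 had higher Sema4a and Sema4f, and lower Sema4d, Sema7a and Sema3f, than cDC2. The plexins Plxnc1, Plxnb2, Plxnd1 and Plxna1 and the neuropilin Nrp2 were also lower in WT cDC1, by 5.18-fold to 14.9-fold. By edgeR's quasi-likelihood test with Benjamini-Hochberg adjustment over all 20631 tested genes, 14 of the 31 members were called at an adjusted p under 0.05, 4 higher and 10 lower in cDC1; 15 were tested and not called, and Sema3c and Sema3e were too rare to be tested. This is 48.3% of the 29 tested members, against 30.1% of all tested genes, 14.2% called higher and 15.9% called lower. The median log2 fold change was -0.86 over the 29 tested members and 0.03 over all tested genes. The family's median is the value of Plxnb1, which had 9 and 47 reads in WT cDC1 and 90 and 6 in WT cDC2. The values next to it were -0.92 for Sema3g and -0.39 for Sema6d. Across genes, longer ones tended to be lower in WT cDC1 (Spearman correlation -0.274 with exon length over 8399 genes, a description). The part of this trend in the family's median was not tested. By role, 4 of the 13 membrane semaphorins were called higher and 3 lower, 1 of the 7 class 3 semaphorins lower, 5 of the 9 plexins lower and none higher, and 1 of the 2 neuropilins lower.

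Among the ligands, Sema4a, a class 4 semaphorin that in mice costimulates T cells, was at 286 and 351 CPM in WT cDC1 and at 58.1 and 62.6 CPM in WT cDC2. Both cDC1 libraries lay above both cDC2 libraries, a 5.28-fold higher mean (log2 fold change 2.40, SE 0.17, adjusted p = 2.68e-06). Sema4f, a class 4 member best known from neurons and glia, was at 90.4 and 96.9 CPM in WT cDC1 and at 5.15 and 5.68 CPM in WT cDC2. It was 17.3-fold higher in WT cDC1 (4.11, SE 0.18, adjusted p = 1.16e-07), with a gap between the groups that was many times the spread within either. Sema5b had 78 and 184 reads in WT cDC1, or 1.35 and 3.15 CPM, and no read in either WT cDC2 library, where 3 reads over the group would be 0.0270 CPM. Its mean was at least 83.4-fold higher in WT cDC1 (adjusted p = 0.000629), a bound that was 117-fold without WT cDC1 replicate 2 and 50-fold without WT cDC1 replicate 3.

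Sema4d, known in lymphocytes as CD100 and a ligand of B-type plexins and Cd72, went the other way, with 174 and 208 CPM in WT cDC1 and 936 and 917 CPM in WT cDC2. The groups were far apart, 4.84-fold lower in WT cDC1 (log2 fold change -2.28, SE 0.13, adjusted p = 8.03e-07). Sema7a, the lipid-anchored ligand of Plxnc1 and of an integrin, had 1.88 and 3.51 CPM in WT cDC1 and 42.8 and 47.4 CPM in WT cDC2. It was 16.7-fold lower in WT cDC1 (-4.06, SE 0.36, adjusted p = 1.59e-05), where both libraries were near the bottom of the range. Sema3f, a secreted ligand that binds Nrp2, had 16 and 5 reads in WT cDC1, or 0.276 and 0.0855 CPM, and 663 and 600 reads in WT cDC2, or 12.1 and 10.7 CPM. It was 62.7-fold lower in WT cDC1 (-5.96, SE 0.65, adjusted p = 6.35e-05). With so few reads in WT cDC1 the size rested on single libraries, with a log2 fold change of -7.02 without WT cDC1 replicate 2 and -5.35 without WT cDC1 replicate 3. It was the only class 3 semaphorin above 1 CPM in a group.

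The calls for Sema6a, Sema4b and Plxnb3 rested on few reads. Sema6a had 0.622 and 0.496 CPM in WT cDC1 and 0.0727 and 0.160 CPM in WT cDC2 (log2 fold change 2.24, adjusted p = 0.0424). Sema4b, another class 4 member, had 0.328 and 0.667 CPM in WT cDC1 and 2.51 and 1.60 CPM in WT cDC2 (-2.04, adjusted p = 0.0108). Plxnb3 had 0.0518 and 0.0342 CPM in WT cDC1 and 0.546 and 0.835 CPM in WT cDC2 (-3.94, adjusted p = 0.0318). In each the groups did not overlap, but all 3 calls were lost without WT cDC1 replicate 2 (adjusted p 0.127 for Sema6a, 0.0626 for Sema4b and 0.117 for Plxnb3) and without WT cDC2 replicate 2 (0.227, 0.0982 and 0.063 in the same order). Plxnb3 was also lost without replicate 3 of WT cDC1 (0.123) or WT cDC2 (0.114), and Sema6a in every fit that left out any library, the lowest value being 0.054. The Sema6a call was also lost with no low-count filter (0.11), with the compared groups alone (0.0849) and with the replicate block (0.0711).

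Among the receptors, Plxnc1, the plexin that binds Sema7a, had 173 and 256 CPM in WT cDC1 and 1151 and 1074 CPM in WT cDC2. It was 5.18-fold lower in WT cDC1 (log2 fold change -2.37, SE 0.18, adjusted p = 5.03e-06), with no overlap even though the WT cDC1 libraries were apart. Plxnb2, a receptor of class 4 semaphorins, had 37.1 and 68.2 CPM in WT cDC1 and 475 and 388 CPM in WT cDC2. This was 8.21-fold lower in WT cDC1 (-3.04, SE 0.25, adjusted p = 1.04e-05). Plxnd1, a receptor of Sema3e and also of Sema4a, had 11.0 and 23.2 CPM in WT cDC1 and 271 and 238 CPM in WT cDC2, 14.9-fold lower in WT cDC1 (-3.90, SE 0.35, adjusted p = 2.58e-05). Plxna1, which pairs with neuropilins and in mouse dendritic cells with Trem2 and Tyrobp, had 4.27 and 4.74 CPM in WT cDC1 and 23.2 and 24.1 CPM in WT cDC2. The 5.26-fold lower level in WT cDC1 (-2.39, SE 0.34, adjusted p = 0.000379) was beyond the spread in both groups. The other 4 plexins, Plxna2, Plxna3, Plxna4 and Plxnb1, were not called; the highest group mean among them was 3.99 CPM, for Plxna3 in WT cDC1.

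The neuropilins parted. Nrp2 had 0.639 and 1.09 CPM in WT cDC1 and 9.37 and 8.85 CPM in WT cDC2, 10.5-fold lower in WT cDC1 (log2 fold change -3.39, SE 0.34, adjusted p = 3.28e-05). Nrp1, the co-receptor for Sema3a and for vascular growth factors, had 26.1 and 29.2 CPM in WT cDC1 and 30.7 and 29.6 CPM in WT cDC2, close levels that were not called apart (-0.13, SE 0.19, adjusted p = 0.672). Sema4c, a Plxnb2 ligand, had 7.14 and 12.3 CPM in WT cDC1 and 7.47 and 6.25 CPM in WT cDC2, overlapping (0.50, SE 0.35, adjusted p = 0.333). Sema6d, a ligand of Plxna1, averaged 9.29 ± 0.92 CPM in WT cDC1 and 12.2 ± 1.8 CPM in WT cDC2 (SD, n = 2 each) and was not called.

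With either WT cDC1 library left out, the calls for the 4 plexins named, for Nrp2 and for Sema4a, Sema4f, Sema5b, Sema4d, Sema7a and Sema3f held, with other sizes. Without WT cDC1 replicate 2, the one in which long genes were lower, the log2 fold change was -2.66 for Plxnb2, -3.46 for Plxnd1, -2.12 for Plxnc1, -3.68 for Sema7a and -3.05 for Nrp2. Without replicate 3 these were -3.54, -4.53, -2.68, -4.58 and -3.83 in the same order. For Sema4a, Sema4f, Sema4d and Plxna1 the log2 fold changes were 2.54, 4.16, -2.15 and -2.32 without replicate 2, and 2.24, 4.06, -2.41 and -2.47 without replicate 3. With the length trend taken out of every library, the values for Plxnb2, Plxnd1, Plxnc1, Sema7a and Nrp2 were -2.82, -3.70, -2.13, -4.07 and -3.06. The summed level of 10 monocyte and macrophage markers, all detected in both groups, was 196 to 229 CPM in WT cDC1, against 1104 to 1157 CPM in WT cDC2. Csf1r and Adgre1 carried most of this: Csf1r had 15.9 and 13.8 CPM in WT cDC1, against 623.5 and 612.5 CPM in WT cDC2, and Adgre1 had 3.84 and 3.25 CPM in WT cDC1, against 227 and 204 CPM in WT cDC2. The monocyte genes Ccr2 (70.7 and 74.8 CPM in WT cDC1, against 41.9 and 41.5 CPM in WT cDC2) and Ly6c2 (10.1 and 7.94 CPM in WT cDC1, against 3.64 and 3.66 CPM in WT cDC2) had the higher values in WT cDC1. The part of these markers in the differences was not tested. Of the 8 endothelial markers, which summed to 112.5 to 118.5 CPM in WT cDC1 and 140.0 to 147.5 CPM in WT cDC2, Pecam1 made up most. Cdh5 was at 0.743 and 0.719 CPM in WT cDC1 and 0.436 and 0.604 CPM in WT cDC2. Kdr, a growth factor receptor that pairs with neuropilins, was at 0.449 and 2.55 CPM in WT cDC1 and 11.7 and 12.8 CPM in WT cDC2. Vwf, the next largest after Pecam1, went the other way, at 38.9 and 39.8 CPM in WT cDC1 and 18.1 and 17.5 CPM in WT cDC2. The part of the endothelial markers was not tested.

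The 4 mutant libraries, none of which enters the WT comparison, gave the cell type difference again, with each cell type carrying another allele and the estimate of spread shared between both comparisons. Of the 31 members, 11 were called between Zeb2 mutant cDC1 and Irf8 mutant cDC2, 3 higher and 8 lower, against 27.9% of all tested genes (12.8% higher and 15.0% lower). All 11 were called in the same direction between the WT cells, and these 11 kept their calls in both comparisons under all 15 fits that were run. Longer genes tended to be lower in Zeb2 mutant cDC1 too (Spearman correlation -0.138 with exon length over 8399 genes, a description). The other 3 WT calls were absent here: Sema4b and Plxnb3 had log2 fold changes of -0.63 and -1.07 and did not pass the test (Plxnb3 did without Zeb2 mutant replicate 3, at -4.30 and an adjusted p of 0.0236), and Sema6a, at 0.361 and 0.258 CPM in Zeb2 mutant cDC1 and 0.462 and 0.367 CPM in Irf8 mutant cDC2, had the other sign (-0.42, adjusted p = 0.715). Sema6b, another membrane ligand of A-type plexins, had 3.68 and 4.83 CPM in Zeb2 mutant cDC1 and 1.23 and 2.35 CPM in Irf8 mutant cDC2 (1.25, SE 0.43) and was not called (adjusted p = 0.0534). The monocyte and macrophage markers summed to 155 and 164 CPM in Zeb2 mutant cDC1, against 1220 and 926 CPM in Irf8 mutant cDC2. In the same order, Csf1r (11.4 and 11.3 against 557 and 466 CPM) and Adgre1 (3.939 and 4.665 against 243 and 222 CPM) carried most of this. Ly6c2 went the other way (12.6 and 12.2 against 5.37 and 2.24 CPM), and Ccr2 overlapped (49.8 and 38.9 against 44.2 and 31.8 CPM). The part of these markers was not tested. Irf8 mutant replicate 2 stood apart from replicate 3, with the cDC2 marker Mgl2 at 62.0 against 18.1 CPM. Its erythroid and platelet markers summed to 57.6 against 4.55 CPM, mostly Hba-a1 (31.3 against 1.51 CPM) and Hbb-bs (22.2 against 1.26 CPM). The platelet genes Pf4, Itga2b and Ppbp were at 0.0193, 1.81 and 0.231 CPM in replicate 2, against 0.224, 1.31 and 0.163 CPM in replicate 3.

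The ligands Sema4a, Sema4f and Sema5b were higher in Zeb2 mutant cDC1 than in Irf8 mutant cDC2. Sema4a had 315 and 307 CPM in Zeb2 mutant cDC1 and 75.2 and 57.4 CPM in Irf8 mutant cDC2, a 4.69-fold difference (log2 fold change 2.23, SE 0.16, adjusted p = 4.21e-06). Sema4f had 90.4 and 109 CPM in Zeb2 mutant cDC1 and 12.3 and 9.79 CPM in Irf8 mutant cDC2, 9.01-fold higher (3.17, SE 0.17, adjusted p = 4.5e-07). Sema5b had 64 and 118 reads in Zeb2 mutant cDC1, or 1.10 and 2.18 CPM, and 0 and 4 reads in Irf8 mutant cDC2 (5.28, SE 0.97, adjusted p = 0.00299). The Sema5b call held without Irf8 mutant replicate 2 (4.29, adjusted p = 0.0212) and without Irf8 mutant replicate 3, which holds all 4 reads (adjusted p = 0.0063). These 3 ligands were the members called higher in cDC1 in both comparisons.

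The other 8 were lower in Zeb2 mutant cDC1 than in Irf8 mutant cDC2. Sema4d had 223 and 205 CPM in Zeb2 mutant cDC1, against 761 and 746 CPM in Irf8 mutant cDC2, and was 3.52-fold lower in Zeb2 mutant cDC1 (log2 fold change -1.82, SE 0.13, adjusted p = 3.53e-06). Sema7a had 2.65 and 3.74 CPM in Zeb2 mutant cDC1, against 59.5 and 32.5 CPM in Irf8 mutant cDC2 (-3.85, SE 0.36, adjusted p = 2.12e-05), a pair of cDC2 libraries that were themselves apart. Sema3f had 2 and 15 reads in Zeb2 mutant cDC1, or 0.0344 and 0.277 CPM, against 914 and 517 reads, or 17.6 and 10.5 CPM, in Irf8 mutant cDC2 (-6.51, SE 0.67, adjusted p = 4.32e-05). The Sema3f value was -5.66 without Zeb2 mutant replicate 2 and -8.58 without Zeb2 mutant replicate 3, and the call held in both. This secreted ligand was at most at 0.277 CPM in the 4 cDC1 libraries.

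Of the 9 plexins, 4 were called lower in Zeb2 mutant cDC1 and none higher; Plxna3 and Plxnb1 had positive values that were not called (0.69 and 1.82). Plxnc1 had 273 and 251 CPM in Zeb2 mutant cDC1, against 1083 and 1081 CPM in Irf8 mutant cDC2, 4.13-fold lower (log2 fold change -2.05, SE 0.18, adjusted p = 1.25e-05). Plxnb2 had 95.1 and 84.5 CPM in Zeb2 mutant cDC1, against 317 and 286 CPM in Irf8 mutant cDC2, 3.36-fold lower (-1.75, SE 0.24, adjusted p = 0.000357). Plxnd1 had 22.5 and 22.6 CPM in Zeb2 mutant cDC1, against 287 and 176 CPM in Irf8 mutant cDC2, 10.3-fold lower (-3.36, SE 0.34, adjusted p = 5.96e-05). Plxna1 had 6.86 and 3.71 CPM in Zeb2 mutant cDC1, against 27.5 and 15.3 CPM in Irf8 mutant cDC2, 4.05-fold lower (-2.02, SE 0.33, adjusted p = 0.00111). Irf8 mutant replicate 2 was the higher library for each of these 4 plexins. Nrp2 had 0.327 and 0.221 CPM in Zeb2 mutant cDC1, against 13.8 and 10.8 CPM in Irf8 mutant cDC2, 44.8-fold lower (-5.47, SE 0.38, adjusted p = 2.83e-06). Nrp1 had 26.6 and 24.0 CPM in Zeb2 mutant cDC1 and 38.1 and 26.0 CPM in Irf8 mutant cDC2, and again was not called (-0.34, adjusted p = 0.22).

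**Figure D2:**
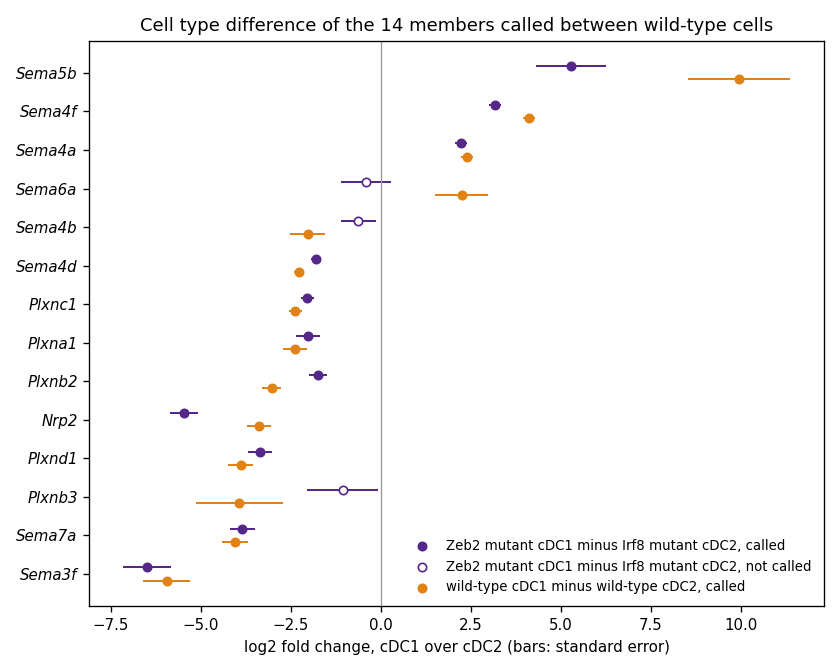
Log2 fold change of cDC1 over cDC2 (horizontal axis; bars are the standard error) for the 14 members called between WT cells, in Zeb2 mutant cDC1 minus Irf8 mutant cDC2 (purple, open where not called) and in WT cDC1 minus WT cDC2 (orange). For 11 genes both points are filled and lie on the same side of 0, and for Sema6a they lie on opposite sides. The Sema5b value for WT cells is fitted against a group with no read and depends on the fit's prior count.

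Per kilobase of exon, which allows levels to be compared between genes, each cell type had a semaphorin mix of its own. The exon length in the files joins all isoforms of a gene, so a gene expressed as a short isoform is understated. Summed over the 20 semaphorins, the level was 109 and 109 CPM per kilobase in Zeb2 mutant cDC1, 96.6 and 117 in WT cDC1, 141 and 124 in Irf8 mutant cDC2 and 153 and 152 in WT cDC2. Sema4a made up 53.6% and 52.3% of this sum in Zeb2 mutant cDC1 and 54.7% and 55.5% in WT cDC1, against 9.87% and 8.53% in Irf8 mutant cDC2 and 7.03% and 7.61% in WT cDC2. Sema4d made up 26.7% and 24.6% in Zeb2 mutant cDC1 and 23.5% and 23.2% in WT cDC1, against 70.2% and 78.1% in Irf8 mutant cDC2 and 79.6% and 78.4% in WT cDC2. Sema4a was thus the most abundant semaphorin transcript per kilobase in every cDC1 library and Sema4d in every cDC2 library. Sema4f added 15.7% and 18.9% in Zeb2 mutant cDC1 and 17.7% and 15.6% in WT cDC1, and Sema7a added 12.8% and 7.91% in Irf8 mutant cDC2 and 8.47% and 9.44% in WT cDC2.

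Among the plexins the sum was lower in cDC1 than in cDC2, and Plxnc1 led in every library. The 9 plexins summed to 49.5 and 45.1 CPM per kilobase in Zeb2 mutant cDC1 and 28.0 and 44.1 in WT cDC1, against 214 and 193 in Irf8 mutant cDC2 and 239.9 and 215 in WT cDC2. Plxnc1 was the most abundant plexin in all 8 libraries, with 66.1% and 66.6% of the sum in Zeb2 mutant cDC1, 74.2% and 69.6% in WT cDC1, 60.7% and 67.2% in Irf8 mutant cDC2 and 57.5% and 59.9% in WT cDC2. Per kilobase, Nrp1 averaged 2.59 CPM in Zeb2 mutant cDC1, 2.82 in WT cDC1, 3.27 in Irf8 mutant cDC2 and 3.08 in WT cDC2. Nrp2 averaged 0.0231 CPM per kilobase in Zeb2 mutant cDC1, 0.0732 in WT cDC1, 1.04 in Irf8 mutant cDC2 and 0.769 in WT cDC2. Nrp1 was the more abundant neuropilin in every group.

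**Figure D3:**
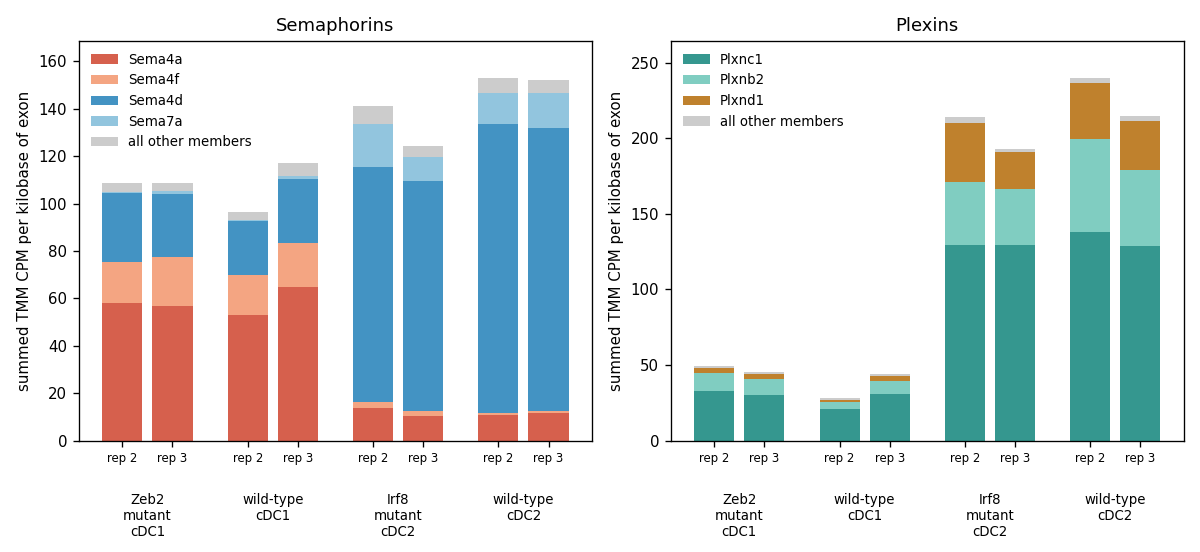
Summed TMM CPM per kilobase of exon (vertical axes, from 0) of the 20 semaphorins (left) and the 9 plexins (right) in each of the 8 libraries, stacked by gene, with the groups in the order Zeb2 mutant cDC1, WT cDC1, Irf8 mutant cDC2, WT cDC2. Sema4a is the largest part of the semaphorin bars in cDC1 and Sema4d in cDC2, while Plxnc1 is the largest part of every plexin bar and the plexin bars are taller in cDC2.

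Between Zeb2 mutant and WT cDC1, none of the 29 tested members was called by edgeR, while 0.0679% of all tested genes (14 genes) were, 0.0145% higher and 0.0533% lower. At an unadjusted p under 0.05 the count was 5 members, against 10.5% of all tested genes, and DESeq2 called 1 member, Nrp2. With 2 libraries per group, groups that do not overlap are common even among genes with no difference. This holds here and in the Irf8 mutant comparison, and the share of all genes with such groups was not counted. Nrp2 had the smallest p: at 0.327 and 0.221 CPM in Zeb2 mutant cDC1 and 0.639 and 1.09 CPM in WT cDC1, both mutant libraries were below both WT libraries, 3.16-fold lower on average (log2 fold change -1.65, SE 0.37, unadjusted p = 0.00119, adjusted p = 0.199; DESeq2 adjusted p = 0.0102). Over its alternatives the adjusted p ran from 0.00422 with no low-count filter to 0.648 with the compared groups alone. Plxnb2 had 95.1 and 84.5 CPM in Zeb2 mutant cDC1 and 37.1 and 68.2 CPM in WT cDC1, groups that did not overlap, 1.71-fold higher in the mutant (0.77, SE 0.24, unadjusted p = 0.00876, adjusted p = 0.312). Without WT cDC1 replicate 3 the Plxnb2 value was 1.28 (adjusted p = 0.00433), and without WT cDC1 replicate 2 it was 0.40 (adjusted p = 0.428), with adjusted p over its alternatives from 0.000236 to 0.883, so its size depended on which WT library it was set against. Sema4c had 5.97 and 4.72 CPM in Zeb2 mutant cDC1 and 7.14 and 12.3 CPM in WT cDC1 (-0.86, SE 0.36, adjusted p = 0.434). The other 2 with an unadjusted p under 0.05 were rare in most libraries: Plxnb3 with 3 and 52 reads in Zeb2 mutant cDC1 and 3 and 2 in WT cDC1 (3.48, adjusted p = 0.365), and Sema5a with 1 and 1 reads in Zeb2 mutant cDC1 and 2 and 40 in WT cDC1 (-4.17, adjusted p = 0.41). In both, 1 library held nearly all the reads: without Zeb2 mutant replicate 3 the Plxnb3 value was 0.25, and without WT cDC1 replicate 3 the Sema5a value was -0.87.

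Sema4a, Sema4f, Sema4d and Plxnc1, the most abundant members per kilobase in cDC1, were not called between Zeb2 mutant and WT cDC1. Sema4a averaged 311 ± 5.7 CPM in Zeb2 mutant cDC1 and 318 ± 47 CPM in WT cDC1, and Sema4f 99.6 ± 13 CPM in Zeb2 mutant cDC1 and 93.7 ± 4.6 CPM in WT cDC1 (SD, n = 2 each). Sema4d averaged 214 ± 12 CPM in Zeb2 mutant cDC1 and 191 ± 24 CPM in WT cDC1, and Plxnc1 262 ± 16 CPM in Zeb2 mutant cDC1 and 215 ± 59 CPM in WT cDC1. Plxnc1 was called higher in the mutant without WT cDC1 replicate 3 (log2 fold change 0.60, adjusted p = 0.0201), and its value was 0.03 without WT cDC1 replicate 2 (adjusted p over its alternatives 0.0201 to 0.985). Across genes, the Zeb2 mutant minus WT difference was larger for longer genes (Spearman correlation 0.481 over 8399 genes, a description), and with that trend removed the Plxnb2 value was 0.68 and the Nrp2 value -1.80. Markers of neutrophils (6 genes, among them S100a8 and Mpo) summed to 55.9 and 79.7 CPM in Zeb2 mutant cDC1 and 9.57 and 0.770 CPM in WT cDC1, with the defining gene Ly6g at 0.103 and 0.166 CPM in the mutant and 0.0173 and 0.0342 CPM in WT. Their part in these differences was not tested.

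Between Irf8 mutant and WT cDC2, edgeR called none of the 29 tested members and 0.0% of all tested genes. At an unadjusted p under 0.05 there were 5 members and 6.36% of all tested genes, and DESeq2 called 1 member, Sema4f. Sema4f had 12.3 and 9.79 CPM in Irf8 mutant cDC2 and 5.15 and 5.68 CPM in WT cDC2. Both mutant libraries were above both WT libraries, 2.04-fold higher on average (log2 fold change 1.03, SE 0.17, unadjusted p = 8.9e-05, edgeR adjusted p = 0.135, DESeq2 adjusted p = 0.000129), and the mutant level stayed far under that of either cDC1 group. Leaving out any 1 library kept the value between 0.85 and 1.19, with edgeR adjusted p between 0.057 and 1.0, and with no low-count filter the adjusted p was 9.48e-06.

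Sema4d, the leading cDC2 semaphorin, had 761 and 746 CPM in Irf8 mutant cDC2 and 936 and 917 CPM in WT cDC2, not overlapping and not called (log2 fold change -0.30, SE 0.13, unadjusted p = 0.0404, adjusted p = 0.762). Plxnb1 (-3.41, adjusted p = 0.716), Plxna4 (-1.94, adjusted p = 0.767) and Sema6a (1.81, adjusted p = 0.746) were the others with an unadjusted p under 0.05, all under 2 CPM in each library. The Plxnb1 value rested on WT cDC2 replicate 2, with 90 reads, and was -0.40 without it. Plxnc1 averaged 1082 ± 1.3 CPM in Irf8 mutant cDC2 and 1113 ± 54 CPM in WT cDC2, and Plxnd1 232 ± 79 CPM in Irf8 mutant cDC2 and 255 ± 24 CPM in WT cDC2 (SD, n = 2 each). Sema7a averaged 46.0 ± 19 CPM in Irf8 mutant cDC2 and 45.1 ± 3.3 CPM in WT cDC2, and Nrp2 12.3 ± 2.1 CPM in Irf8 mutant cDC2 and 9.11 ± 0.37 CPM in WT cDC2. For Sema7a, Plxnd1, Plxna1 and Sema3f, the Irf8 mutant libraries lay on both sides of the WT libraries. The neutrophil markers summed to 36.1 and 30.9 CPM in Irf8 mutant cDC2 and 1.0 and 11.9 CPM in WT cDC2. Ly6g was at 0.0385 and 0 CPM in the mutant and 0.0364 and 0 CPM in WT. The part of the neutrophil markers was not tested.

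**Figure D4:**
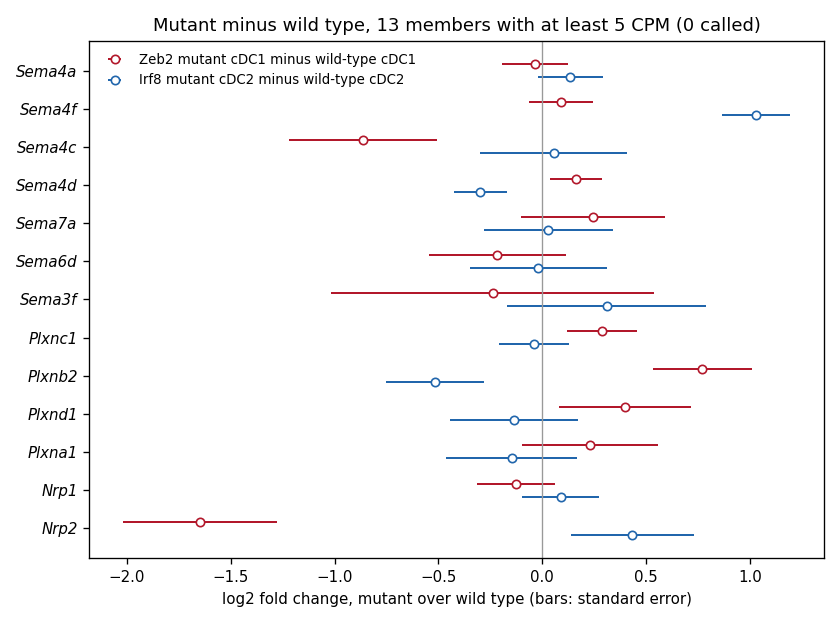
Log2 fold change of mutant over WT (horizontal axis; bars are the standard error) of the 13 members with at least 5 CPM in a group, in Zeb2 mutant cDC1 (red) and Irf8 mutant cDC2 (blue). None was called by edgeR after adjustment; Nrp2 in Zeb2 mutant cDC1 and Sema4f in Irf8 mutant cDC2 lie farthest from 0.

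The cell type difference in the mutants was set against that in WT cells in the same fit. None of the 29 tested members was called, against 0.0194% of all tested genes. At an unadjusted p under 0.05 there were 7 members, against 7.62% of all tested genes. DESeq2 called 3 of these: Nrp2, Plxnb2 and Sema4f. The others were Sema4d (difference 0.46) and Sema3b, Sema5a and Sema6a (-4.39, -6.95 and -2.66), which averaged under 1 CPM in every group. For Nrp2 the cDC1 minus cDC2 log2 fold change was -5.47 in the mutants and -3.39 in WT, a difference of -2.08 (SE 0.48, edgeR adjusted p = 0.323, DESeq2 adjusted p = 0.016). For Sema4f it was 3.17 in the mutants and 4.11 in WT, a difference of -0.94 (SE 0.23, edgeR adjusted p = 0.337, DESeq2 adjusted p = 0.0461). For Plxnb2 it was -1.75 in the mutants and -3.04 in WT, a difference of 1.29 (SE 0.34, edgeR adjusted p = 0.384, DESeq2 adjusted p = 0.0242). The contrast was thus wider for Nrp2 and narrower for Sema4f and Plxnb2 in the mutants, without passing edgeR's test. Over the alternatives the adjusted p of the difference ran from 0.00754 to 0.87 for Nrp2, from 0.0258 to 0.943 for Sema4f and from 6.22e-06 to 0.979 for Plxnb2, the lowest each time with no low-count filter. Without WT cDC1 replicate 2 the Plxnb2 difference was 0.92 (adjusted p = 0.243), and without WT cDC1 replicate 3 it was 1.79 and was called (adjusted p = 0.00493). In the same order the differences were -2.42 and -1.64 for Nrp2 (adjusted p = 0.18 and 0.0971) and -0.99 and -0.89 for Sema4f (adjusted p = 0.277 and 0.0753). A missed call does not show that the differences were equal.

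The partners of the family were described from 4 lists. Of 13 receptors and co-receptors outside the plexins and neuropilins, 12 were tested; 4 were called higher and 4 lower in WT cDC1 than in WT cDC2, with a median log2 fold change of -1.02 (all tested genes 0.03). Among all tested genes in that comparison, 14.2% were called higher and 15.9% lower. Cd72, the Sema4d receptor of B cells, averaged 2.11 CPM in WT cDC1 and 73.3 CPM in WT cDC2 (log2 fold change -5.12, adjusted p = 2.14e-07), and L1cam, a partner of Nrp1, averaged 2.46 CPM in WT cDC1 and 61.3 CPM in WT cDC2 (-4.64, adjusted p = 4.73e-07). Met, a kinase that associates with B-type plexins, averaged 98.9 CPM in WT cDC1 and 4.69 CPM in WT cDC2 (4.40, adjusted p = 1.48e-05), and Itga1, a subunit of the integrin that binds Sema7a, 24.4 CPM in WT cDC1 and 1.41 CPM in WT cDC2 (4.11, adjusted p = 0.000388). In the mutant cells 5 were called higher and 5 lower in Zeb2 mutant cDC1 than in Irf8 mutant cDC2, where 12.8% of all tested genes were called higher and 15.0% lower, and these 4 had the same signs. The list's median there was 0.97, of the opposite sign to its median in WT cells.

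Of 33 signalling proteins downstream of plexins and neuropilins, all tested, 4 were called higher and 10 lower in WT cDC1, with a median of -0.16, beside 14.2% higher and 15.9% lower of all tested genes. Farp2, an exchange factor that acts with A-type plexins, averaged 26.7 CPM in WT cDC1 and 2.32 CPM in WT cDC2 (log2 fold change 3.53, adjusted p = 6.86e-07). Mical3, of the family of actin-oxidising plexin partners, averaged 14.1 CPM in WT cDC1 and 67.5 CPM in WT cDC2 (-2.26, adjusted p = 4.39e-06). The Ras proteins Rras2 and Mras went opposite ways, Rras2 at 21.1 CPM in WT cDC1 and 171 CPM in WT cDC2 (-3.02, adjusted p = 5.32e-06) and Mras at 17.9 CPM in WT cDC1 and 2.62 CPM in WT cDC2 (2.77, adjusted p = 2.2e-05). In the mutant cells 9 were called higher and 9 lower, with a median of -0.01, beside 12.8% higher and 15.0% lower of all tested genes.

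Of 7 growth factors that bind neuropilins, 6 were tested and 1 was called higher and 2 lower in WT cDC1, with a median of -0.65, where 30.1% of all tested genes were called. Vegfa, a ligand of both neuropilins, averaged 3.29 CPM in WT cDC1 and 252 CPM in WT cDC2 (log2 fold change -6.26, adjusted p = 5.69e-08), and Vegfb averaged 12.2 CPM in WT cDC1 and 6.26 CPM in WT cDC2 (0.96, adjusted p = 0.00646). In the mutant cells, where 27.9% of all tested genes were called, 1 was called higher and 3 lower, with a median of -2.42. Of 37 guidance receptors and ligands of other families, 30 were tested, and 1 was called higher and 3 lower in WT cDC1, and 2 higher and 5 lower in the mutant cells. These 4 of 30 and 7 of 30 stand beside 30.1% of all tested genes called in WT cells and 27.9% in mutant cells, and the list's median was -0.44 in WT cells and -1.31 in mutant cells. Efnb2, an ephrin, averaged 1.23 CPM in WT cDC1 and 28.3 CPM in WT cDC2 (-4.52, adjusted p = 0.0114), and Epha2, an ephrin receptor, 0.616 CPM in WT cDC1 and 7.26 CPM in WT cDC2 (-3.55, adjusted p = 0.0249). No gene of the 4 lists was called between either mutant and WT.

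In the files' coordinates, on GRCm38, Sema4a (ENSMUSG00000028064) lies at chr3:88435959-88461182, Sema4f (ENSMUSG00000000627) at chr6:82911885-82939769, Sema4d (ENSMUSG00000021451) at chr13:51685529-51793747, Sema7a (ENSMUSG00000038264) at chr9:57940112-57962865 and Sema3f (ENSMUSG00000034684) at chr9:107681500-107710475. Plxnc1 (ENSMUSG00000074785) lies at chr10:94790866-94944835, Plxnb2 (ENSMUSG00000036606) at chr15:89155549-89180788, Plxnd1 (ENSMUSG00000030123) at chr6:115954811-115995005, Plxna1 (ENSMUSG00000030084) at chr6:89316314-89362620, Nrp1 (ENSMUSG00000025810) at chr8:128358604-128503363 and Nrp2 (ENSMUSG00000025969) at chr1:62703285-62818695. Sema3b and Sema3f both lie on chromosome 9, 72271 bases apart; Sema3b had at most 27 reads in a library while Sema3f had up to 914. The library kit does not mark strand, and 7 of the 31 members share exonic bases with another annotated gene. The largest share among the called members was that of Plxna1, with 970 bases (10.7% of its exons) under the antisense gene Gm26811, which had 0 to 16 reads in a library.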

How the data were processed

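RNA came from the NucleoSpin RNA XS kit and cDNA from 10 ng of it with the SMARTer Ultra Low RNA kit, a kit without strand marking, per the labels' protocols; reads were paired, of 150 bases, from a NovaSeq X Plus. The submitters' processing notes name bcl2fastq, STAR, Subread, featureCounts, Salmon, GRCm38 and mm10. Strand setting and treatment of reads that fit several genes: not given in the sources used here. The deposited count column holds whole reads per gene. The deposited CPM column equals the count over the library's total, and the deposited FPKM column equals that CPM per kilobase of exon, both checked on the values; the deposited TPM column was not used. Symbols came from GENCODE M21 on GRCm38, which held 55227 of 55487 IDs and all 31 members with identical coordinates.

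The counts went into edgeR 4.0.16 (R 4.3.3): filterByExpr with the 4 groups (20631 genes), TMM, robust quasi-likelihood with 1 coefficient per group over 8 libraries (4 residual degrees of freedom, common biological coefficient of variation 0.286), and Benjamini-Hochberg adjustment over all tested genes, called under 0.05. A standard error is the absolute log2 fold change divided by the root of its F. Folds are ratios of mean TMM CPM, or, where a group had no read, lower bounds against 3 reads over the group, which cover counting error only. There were 5 comparisons. The model was also run on counts simulated from its own fitted spread, with no length trend. That run cannot show how sound the calls are in libraries that have such a trend. Members, lists, markers and motifs were chosen with earlier results of these data known. Named genes outside the family are up to 4 called genes per list with the largest change and at least 5 CPM. Alternatives were RLE size factors, no low-count filter, the compared groups alone, a replicate block, a length trend removed, DESeq2 1.42.0, and each library left out. The labels do not say what a replicate is, so the p-values measure the spread between these samples, which may be technical. In no group did the 2 libraries agree within sampling noise (chi-square per gene 27.4 to 141).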

Additional observations from a re-analysis of the deposited data

How the results depend on the processing

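In both cell type comparisons the members' counts kept within 11 to 14 calls under every alternative, and no called value changed sign. The fits without a low-count filter called 3 members between Zeb2 mutant and WT cDC1 (Nrp2, Plxnb2 and Plxnb3), 1 between Irf8 mutant and WT cDC2 (Sema4f) and 3 in the difference of the cell type differences. DESeq2 called 1, 1 and 3 in the same order. Over all genes, the Zeb2 mutant comparison called 14 genes in the fit reported, 477 with no filter, 7 with the compared groups alone and 305 with DESeq2. The Irf8 mutant comparison called 0 in the fit reported, 7 with RLE size factors, 199 with no filter, 7 with the compared groups alone and 151 with DESeq2. The difference of differences called 4 in the fit reported, 306 with no filter, 1 with the replicate block, 2 with the length trend removed and 162 with DESeq2. The cause of these shifts was not tested.

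With 1 library left out, members called ranged from 11 to 13 between WT cell types, 11 to 13 between mutant cell types, 0 to 2 for the Zeb2 mutant (2 without WT cDC1 replicate 3), 0 for the Irf8 mutant and 0 to 1 for the difference of differences. All genes called ranged from 3800 to 6894, 3853 to 6821, 0 to 1035, 0 to 15 and 0 to 530 in the same order, fits in which the lone library of a group is assumed to vary like the others.

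With a replicate block, 13 members were called between WT cell types, 12 between mutant cell types and 0 in the other 3 comparisons; over all genes the counts were 5656, 5185, 13, 0 and 1. Over all tested genes, the deviations of same-numbered libraries were uncorrelated (Pearson's r -0.0255 to -0.00147), so the numbers were not used to pair the samples. Sampling noise in genes with few reads pulls this correlation towards 0. It therefore does not show that same-numbered libraries share no batch. Depth limits the members under 1 CPM, where a few reads in 1 library can set the value.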
